A study of Mus musculus with 4 samples.

Results

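The RNA of 9 genes for secreted proteins that bind iron or belong to the acute-phase response was measured in 4T1 cells, a murine triple-negative breast cancer (TNBC) line. The 9 genes, Lcn2, Cp, Saa3, C3, Cfb, Hp, Ltf, S100a8 and S100a9, were chosen by symbol for what their proteins do, and each symbol matched 1 of the 49585 genes of the deposited table. RNA came from 4T1-HM and 4T1-LM, a pair of clones that were each grown from 1 cell of the line and picked for a high or a low metastatic property, so each level of that property is represented by 1 clone. The cultures were kept for 48 h with 50 uM of the oral iron chelator deferasirox (DFX) dissolved in DMSO, named HM_DFX and LM_DFX, or with DMSO alone, named HM_Ctrl and LM_Ctrl. Each of the 4 conditions is 1 library, so the spread between cultures is unknown and no p-value is given.

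Secreted iron-binding proteins influence how much iron bacteria and neighbouring cells can take up. Lipocalin 2, encoded by Lcn2, captures siderophores, the small molecules with which bacteria collect iron, while ceruloplasmin, encoded by Cp, is a copper enzyme that oxidises ferrous iron so that transferrin can load it. Lactoferrin, from Ltf, binds ferric iron directly, and haptoglobin, from Hp, binds free hemoglobin. The liver and inflamed epithelium raise many of these genes together with serum amyloid A (Saa3) and the complement proteins C3 and factor B (Cfb) when interleukins activate NF-kappaB, C/EBP and STAT factors. S100a8 and S100a9 form calprotectin, a metal-binding complex that neutrophils hold in large amounts.

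Values were read as FPKM, the fragments (read pairs) on a gene normalized to its exon length and to the library total, so that levels can be compared between genes. The FPKM moved in whole steps, and library totals of 14363065 to 21883855 fragments were recovered from them. Intervals given below are exact binomial (Clopper-Pearson) intervals at 95% on these fragments, and they cover counting error only. Of 8 epithelial markers 7 were expressed. The keratins of simple epithelium Krt8 and Krt18 reached 134 to 963 and 251 to 933 FPKM. The basal keratin Krt5 was listed at 0, and Krt14 was at 2.48 and 1.90 FPKM in the HM libraries against 54.3 in LM_Ctrl and 10.4 in LM_DFX. However, 36.0% of the 31-base stretches of Krt8, 11.4% of Krt18, 15.8% of Krt5 and 28.2% of Krt14 also occur in another gene. The 13 neutrophil and macrophage markers summed to at most 0.300 FPKM in any library, and Ly6g, Mpo, Camp and Adgre1 were listed at 0 in all 4. Hepatocyte markers summed to at most 0.0613 FPKM. The 8 fibroblast and endothelial markers summed to 3.57 to 5.67 FPKM, mostly from Pdgfra at 2.77 to 5.50 FPKM, while Pdgfrb and Lum were listed at 0. Of the receptors that define TNBC by their absence, Pgr was at 0 and Esr1 reached 0.529 FPKM, but Erbb2 stood at 3.80 to 12.5 FPKM.

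Only 3 of the 9 genes, Lcn2, Cp and C3, reached 1 FPKM in at least 1 library, the level used to call a gene expressed, which 12669 genes of the table reached. Of the other 6, Saa3, Hp, Ltf and S100a8 had between 1 and 7 fragments in their highest library, and Cfb and S100a9 were listed at 0 in all 4. The results therefore rest on a siderophore-binding protein, a ferroxidase and the central complement protein. Each of the 3 had its own order of the libraries, as the plot of FPKM by library shows. Lcn2 was high in HM_Ctrl alone, Cp was high in both controls, and C3 was high in both LM libraries.

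**Figure D1:**
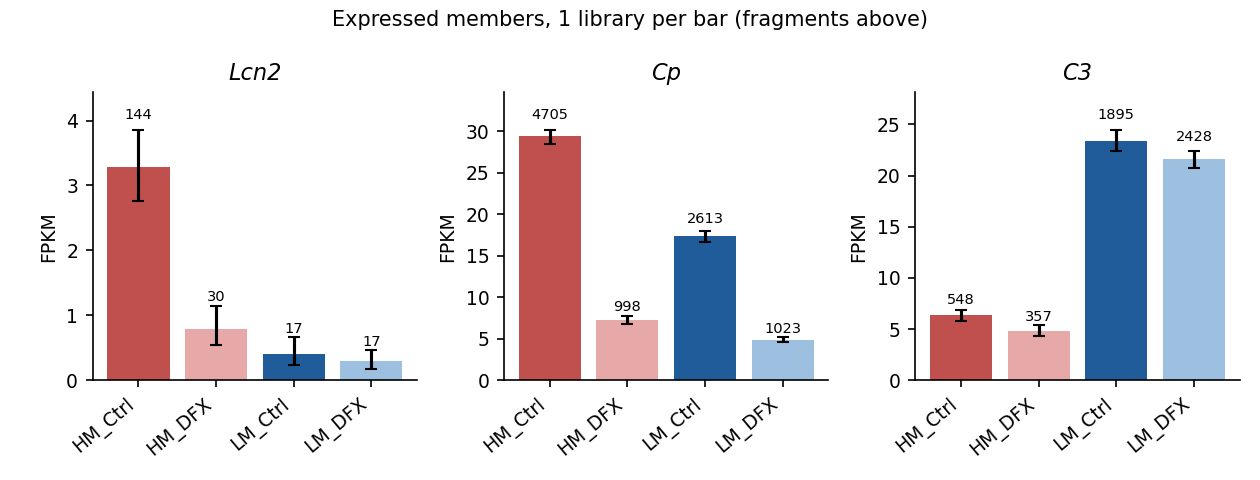
FPKM of Lcn2, Cp and C3 (y axes, linear, starting at 0) in HM_Ctrl, HM_DFX, LM_Ctrl and LM_DFX (x axes); bars are single libraries, error bars are 95% binomial counting intervals and the numbers above the bars are fragments. Lcn2 peaked in HM_Ctrl at 3.28 FPKM, Cp was lower in each DFX library than in its control, and C3 was at 21.6 FPKM or more in both LM libraries and at 6.36 or less in both HM libraries.

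The promoters of the 3 expressed genes are shown because all are known to be inducible in inflammation, yet their levels followed 3 different orders. The sequences are RefSeq windows of build GRCm38.p6, from 250 bases before the annotated start site to 50 bases from it, and run 5′ to 3′ along the gene. Lcn2 lies at chr2:32387690-32387989 on the minus strand, Cp at chr3:19956999-19957298 on the plus strand and C3 at chr17:57228087-57228386 on the minus strand. Capitals mark matches, on either strand, to GGG and CC with any 5 bases between them (NF-kappaB), TTGCNNAA (C/EBP), TTCNNNGAA (STAT) or ACGTG (the core of a HIF element).
Lcn2: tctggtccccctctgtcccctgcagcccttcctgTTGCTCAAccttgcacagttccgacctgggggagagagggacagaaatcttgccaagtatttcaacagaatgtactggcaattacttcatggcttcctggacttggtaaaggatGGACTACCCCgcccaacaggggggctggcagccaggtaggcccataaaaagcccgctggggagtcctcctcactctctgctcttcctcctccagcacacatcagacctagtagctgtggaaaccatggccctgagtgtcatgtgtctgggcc
Cp: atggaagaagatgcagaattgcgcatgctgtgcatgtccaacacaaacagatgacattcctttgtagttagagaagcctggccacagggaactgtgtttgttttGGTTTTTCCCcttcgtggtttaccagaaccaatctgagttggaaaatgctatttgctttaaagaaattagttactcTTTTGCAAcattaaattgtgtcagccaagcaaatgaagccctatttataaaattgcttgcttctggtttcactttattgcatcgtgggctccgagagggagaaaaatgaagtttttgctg
C3: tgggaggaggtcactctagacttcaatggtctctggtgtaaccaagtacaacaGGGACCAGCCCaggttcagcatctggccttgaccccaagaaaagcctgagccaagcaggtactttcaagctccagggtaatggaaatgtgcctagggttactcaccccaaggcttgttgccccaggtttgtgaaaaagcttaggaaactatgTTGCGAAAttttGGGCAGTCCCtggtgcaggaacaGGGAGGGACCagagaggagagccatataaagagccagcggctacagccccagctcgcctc

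Counting from the start site, the Lcn2 window held a C/EBP match from -216 to -209 and an NF-kappaB match from -102 to -93. The Cp window held an NF-kappaB match from -146 to -137 and a C/EBP match from -70 to -63, while a second RefSeq start of Cp, whose window begins at position 19956804, had no match. C3 had a C/EBP match from -45 to -38 and 4 NF-kappaB matches, of which a pair overlap between -197 and -187. Neither the STAT nor the HIF letters occurred in these windows. Such letters are common, since 50.8% of the 32851 RefSeq windows of this length hold the NF-kappaB letters, 10.8% the C/EBP letters, 8.30% the STAT letters and 19.6% the HIF core, so the matches describe the windows and mark no site of binding.

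Lcn2 (ENSMUSG00000026822, chromosome 2 from 32384633 to 32388252 of mm10, minus strand) had the lowest level of the 3 expressed genes in every library. Its FPKM was 3.28 in HM_Ctrl and 0.796 in HM_DFX, against 0.412 in LM_Ctrl and 0.296 in LM_DFX, from 144, 30, 17 and 17 fragments. HM_Ctrl thus stood apart, and the counting interval of HM_Ctrl, 2.76 to 3.86 FPKM, did not reach those of the other 3 libraries, the highest of which ended at 1.14. Below it the intervals of neighbours in the order overlapped, that of HM_DFX (0.537 to 1.14) with that of LM_Ctrl (0.240 to 0.660), and the latter with that of LM_DFX (0.173 to 0.474). Even in HM_Ctrl the gene was modest, above 28.0% of expressed genes. In bulk RNA a smaller share of cells with a transcript and less of it per cell cannot be told apart.

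Cp (ENSMUSG00000003617, chromosome 3 from 19957054 to 20009145, plus strand) was the most abundant of the 9 genes in both HM libraries. Its FPKM was 29.4 in HM_Ctrl and 7.26 in HM_DFX, against 17.4 in LM_Ctrl and 4.89 in LM_DFX, from 4705, 998, 2613 and 1023 fragments. Both DFX libraries were below both controls, and within each treatment HM was above LM. The intervals of the 4 libraries did not overlap. In HM_Ctrl Cp was above 83.9% of expressed genes, and in LM_DFX above 38.8%.

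C3 (ENSMUSG00000024164, chromosome 17 from 57203970 to 57228136, minus strand) followed the clone. Its FPKM was 6.36 in HM_Ctrl and 4.83 in HM_DFX, against 23.4 in LM_Ctrl and 21.6 in LM_DFX, from 548, 357, 1895 and 2428 fragments. Both LM libraries were far above both HM libraries, and DFX moved the gene little within either clone. The intervals of LM_Ctrl (22.4 to 24.5 FPKM) and LM_DFX (20.7 to 22.4) met at their edges, while those of HM_Ctrl (5.84 to 6.92) and HM_DFX (4.34 to 5.36) did not overlap.

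The summed FPKM of the 9 genes was alike in the controls, 39.7 in HM_Ctrl and 41.2 in LM_Ctrl, but was made of different genes. Cp gave 74.0% of the sum in HM_Ctrl and 42.1% in LM_Ctrl, while C3 gave 16% and 56.8%. Under DFX the sum was 13.6 FPKM in HM and 27.0 in LM. In LM_DFX C3 alone made up 79.9% of it, and in HM_DFX Cp still gave 53.3%.

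**Figure D2:**
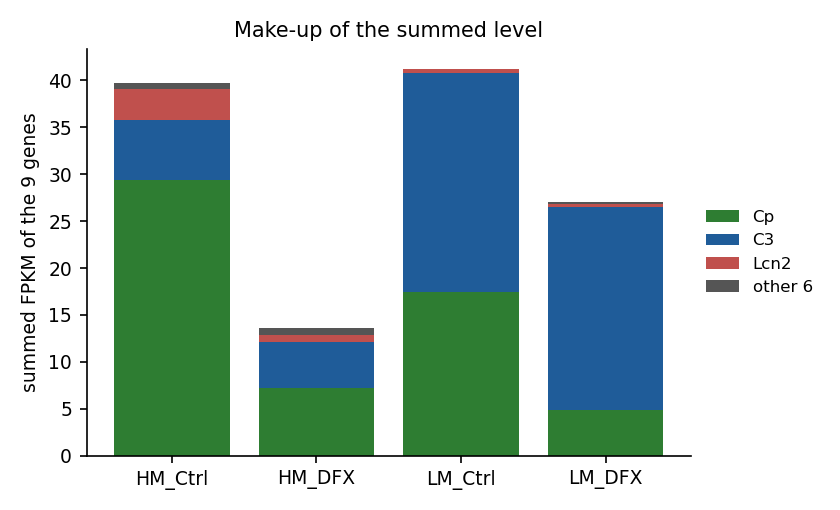
Summed FPKM of the 9 genes (y axis) in each library (x axis, 1 library per bar), split into Cp, C3, Lcn2 and the other 6. The controls reach 39.7 and 41.2 FPKM with mainly Cp in HM_Ctrl and mainly C3 in LM_Ctrl, and the DFX libraries reach 13.6 and 27.0.

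The clones were first compared without drug, which asks how cells of high and low metastatic capacity differ before treatment. Each pair of libraries was set side by side as the log2 ratio of FPKM + 1, a scale that understates the change of low genes, and a gene was called at a change of at least 2-fold. Lcn2 was higher in HM_Ctrl than in LM_Ctrl by a log2 fold change of 1.60, and 0.979% of expressed genes had a larger one. Lcn2 reached 1 FPKM in HM_Ctrl alone, so the library that made it count as expressed also sets this change and its rank. On fragments alone, with no pseudocount, Lcn2 was 7.96-fold higher (interval 4.80 to 14). C3 was lower in HM_Ctrl with a log2 fold change of -1.73, below all but 0.679% of expressed genes, and its fragment ratio of LM_Ctrl to HM_Ctrl was 3.68 (3.35 to 4.06). Cp had a log2 fold change of 0.73 in favour of HM_Ctrl and was not called. Of the 9 genes 1 was thus called in each direction, both of them among the 3 expressed. In this comparison 3.65% of the 12669 expressed genes were called higher and 3.15% lower, which is 0.932% and 0.805% of all 49585 genes.

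DFX in 4T1-HM was read as HM_DFX against HM_Ctrl. Cp was lower in HM_DFX by a log2 fold change of -1.88, with a fragment ratio of control to treated of 4.04 (3.78 to 4.33), and 1.74% of expressed genes fell further on this scale. Lcn2 was lower by -1.25, and its fragment ratio of control to treated was 4.12 (2.76 to 6.32), close to that of Cp. C3 had a log2 fold change of -0.34, inside the quartiles of expressed genes (-0.61 and 0.35). Thus 2 of the 9 genes, both among the 3 expressed, were called lower and 0 higher. Of expressed genes 12.4% were called lower and 6.93% higher, or 3.16% and 1.77% of all genes, and with median-ratio scaling 10.1% and 8.90% of expressed genes. Of the 7 expressed epithelial markers, 5 were called lower and 0 higher in HM_DFX, while in LM_DFX 3 were called lower and 1, Krt19, higher. Their part in the Cp and Lcn2 values was not tested.

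In 4T1-LM the same treatment left Cp as the 1 gene of the 9 that was called. It was lower in LM_DFX than in LM_Ctrl by a log2 fold change of -1.64, and the fragment ratio of control to treated was 3.55 (3.30 to 3.82). C3 had a log2 fold change of -0.11. Lcn2 had one of -0.12 from a start of only 17 fragments, and its fragment ratio of control to treated, 1.39, had an interval of 0.668 to 2.90 that included no change. In this comparison 8.72% of expressed genes were called lower and 7.09% higher, or 2.23% and 1.81% of all genes.

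The responses of the clones were set side by side, though with 1 library per condition their difference was not tested. For Cp the log2 fold change was lower in HM than in LM by 0.24, and 37.3% of expressed genes had a value further in that direction. For C3 the corresponding difference was -0.22, with 38.4% of genes below it. Lcn2 had the larger difference, -1.13, which 3.84% of expressed genes passed. Its intervals for the fragment ratio of control to treated, 2.76 to 6.32 in HM and 0.668 to 2.90 in LM, overlapped at their edges. The LM response of Lcn2, from 17 fragments in each library, was -0.12 with the pseudocount of 1 and -0.48 on fragments. On fragments the difference between the clones was -1.57. HM_Ctrl, the only library in which Lcn2 reached 1 FPKM, enters both the clone comparison and the DFX response of 4T1-HM. A high Lcn2 value in that 1 library would thus set both results at once.

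Under DFX the clones were compared as HM_DFX against LM_DFX. C3 kept a lower level in HM, with a log2 fold change of -1.95 and a fragment ratio of LM_DFX to HM_DFX of 4.46 (3.99 to 5.00), and only 0.529% of expressed genes were lower. Cp was higher in HM_DFX by 0.49 and Lcn2 by 0.47 on the log2 scale, neither of which was called. Without a pseudocount, Lcn2 was 2.69-fold higher in HM_DFX (1.44 to 5.20), from 30 and 17 fragments, which would be a call. Here 5.05% of expressed genes were called lower and 3.31% higher, or 1.29% and 0.845% of all genes. The plot of log2 fold changes shows the 3 genes against the quartiles of all expressed genes.

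**Figure D3:**
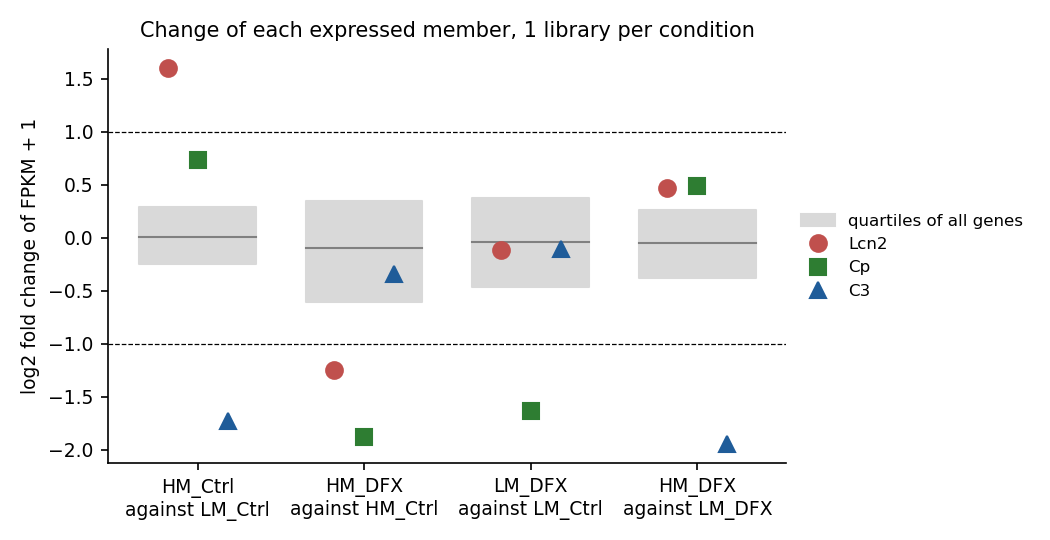
Log2 fold change of FPKM + 1 (y axis) of Lcn2, Cp and C3 in the 4 comparisons (x axis), 1 library per condition; grey boxes span the quartiles and grey lines the median of the 12669 expressed genes, and dashed lines mark 2-fold. C3 lies at -1.73 and -1.95 in the clone comparisons and inside the boxes under DFX, while Cp lies at -1.88 and -1.64 under DFX.

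The 6 genes that did not reach 1 FPKM had at most 7 fragments in any library, so their fold changes are imprecise. S100a8 (ENSMUSG00000056054, chromosome 3 from 90668978 to 90670035) was counted with 6 fragments in HM_Ctrl and 7 in HM_DFX, against 0 in LM_Ctrl and 2 in LM_DFX, or 0.516, 0.702, 0 and 0.132 FPKM. The counting interval of HM_DFX (0.282 to 1.45 FPKM) overlapped that of LM_DFX (0.0159 to 0.476), and the 0 of LM_Ctrl allows up to 0.275 FPKM, inside the interval of HM_Ctrl (0.189 to 1.12). As a direct ratio of fragments, S100a8 was 5.33-fold higher in HM_DFX than in LM_DFX, with a wide interval of 1.02 to 52.6. For HM_Ctrl against LM_Ctrl the interval of the ratio began at 1.11 and had no upper end. Its partner S100a9 (ENSMUSG00000056071, chromosome 3 from 90692632 to 90695721) had 0 fragments throughout, which allows levels of up to 0.263 to 0.400 FPKM, the worth of 3 fragments in each library. Saa3 (ENSMUSG00000040026, chromosome 7 from 46711998 to 46715700) rested on 4 fragments in HM_Ctrl, 6 in LM_DFX and 0 in the other two. Of its 31-base stretches 7.56% also occur in another gene. Hp (ENSMUSG00000031722, chromosome 8 from 109575128 to 109579172) was seen with 2 fragments in HM_Ctrl, 1 in LM_Ctrl and 0 in both DFX libraries. Ltf (ENSMUSG00000032496, chromosome 9 from 111019271 to 111042767) had 1 fragment, in HM_DFX.

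Cfb (ENSMUSG00000090231, chromosome 17 from 34856374 to 34862518) was listed at 0 in all 4 libraries, but this zero differs from the others. Of its exonic bases 79.5% are shared, on the same strand, with Gm20547, a locus that also takes in exons of C2 and was itself listed at 0. How fragments on overlapping genes were counted is not given in the sources used here, so the value was not read as absence of Cfb RNA. Lcn2, Saa3, C3, Hp, Ltf, S100a8 and S100a9 share no exonic base with another gene, and Cp shares 1.10%, on the opposite strand.

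Most other acute-phase genes were, like Cfb and S100a9, listed at 0. Of 25, which included Saa1, Saa2, Crp, the fibrinogen chains and the iron hormone hepcidin (Hamp), 18 were listed at 0 in all 4 libraries and 2 were expressed. Of the 31-base stretches of Saa1, Saa2 and Hamp, 46.8%, 44.5% and 33.7% also occur in another gene, and how fragments with several matches were counted is not given in the sources used here, so their zeros were not read as absence. One of these, the lipopolysaccharide co-receptor Cd14, had 12.4 FPKM in HM_Ctrl and 5.58 in HM_DFX, against 8.09 in LM_Ctrl and 4.19 in LM_DFX. Its log2 fold change was -1.02 in HM_DFX against HM_Ctrl, a call, and -0.81 in LM_DFX against LM_Ctrl.

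Among 29 other complement components and regulators 7 were expressed and 12 were at 0 in all libraries, including C1qa, Hc (which encodes C5) and Cfd, the protease that activates factor B. Clusterin (Clu), an inhibitor of the terminal complex, and Masp1, a protease of the lectin pathway, were called lower in HM_Ctrl than in LM_Ctrl, the direction of C3, with log2 fold changes of -1.12 and -1.34. Their FPKM were 51.6 and 3.23 in HM_Ctrl against 114 and 9.72 in LM_Ctrl. Under DFX, Clu was called lower in LM, at -1.43, and C1ra in HM, at -1.08 from 75 and 8 fragments. Of the 31-base stretches of C1ra 59.6% also occur elsewhere. Masp2 was called higher in HM_DFX, at 1.69, but 54.9% of its exonic bases overlap genes of the opposite strand, chiefly Tardbp. The median of the 7 genes was -0.62 in HM and -0.51 in LM under DFX, where that of all expressed genes was -0.10 and -0.04.

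Iron handling around ceruloplasmin was thin in these cells. Of its relatives, the ferroxidases hephaestin (Heph) and Hephl1 were listed at 0 in all 4 libraries, and the iron exporter ferroportin (Slc40a1), with which Cp works at the membrane, did not pass 0.212 FPKM. Transferrin (Trf) was at 0 too, although 63.5% of its exonic bases are shared with another gene on the same strand. The heme-degrading enzyme Hmox1, the 1 expressed gene of the 6 measured, moved against Cp. Its FPKM was 34.2 in HM_Ctrl and 169 in HM_DFX, against 9.91 in LM_Ctrl and 86.1 in LM_DFX, with log2 fold changes under DFX of 2.27 in HM and 3.00 in LM.

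Most factors that act upstream of acute-phase genes were expressed, but the cytokines Il6, Il1b, Tnf and Osm and the transcription factor Cebpa did not reach 1 FPKM. Il6 was listed at 0 in both controls and had 0.401 FPKM in HM_DFX and 0.621 in LM_DFX. Of 24 cytokines, receptors and transcription factors 19 were expressed, of which 6 were called higher and 1 lower in HM_DFX, and 4 higher and 1 lower in LM_DFX. Over all expressed genes 6.93% were called higher with DFX in HM and 7.09% in LM. For these 19 the median log2 fold change was 0.18 in HM and 0.26 in LM, where that of all expressed genes was -0.10 and -0.04. The NF-kappaB subunit Rela went from 44.0 to 136 FPKM in HM and from 34.8 to 132 in LM. Relb, another subunit, had log2 fold changes of 1.95 in HM and 1.51 in LM. The cytokine Il11 had values of 2.12 and 1.80, and Il6st, the signaling receptor shared by the interleukin 6 family, of 1.35 and 0.73. Nfkbiz, a nuclear co-factor required for Lcn2 induction in several cell types and named here after its values were seen, had values of 1.34 and 1.12. Nfkb2, the remaining gene called higher in HM, had values of 1.13 and 0.55. Stat3 (-0.19 and -0.06), Cebpb (0.18 and 0.26) and Cebpd (0.03 and -0.48) were not called under DFX. Of the exonic bases of Nfkb2, Cebpb and Cebpd, 18.1%, 20.7% and 15.0% overlap genes of the opposite strand, so their counts are uncertain. The gene called lower in both clones was the interleukin 1 receptor Il1r1, at -1.23 in HM and -1.64 in LM. In untreated cells Il1r1 and Bcl3 were called lower in HM_Ctrl than in LM_Ctrl, at -1.28 and -1.19. None of Lcn2, Cp and C3 was higher under DFX in either clone.

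The S100 family, to which S100a8 and S100a9 belong, was represented by other members. Of 12 further S100 genes 9 were expressed, and 3 were called lower under DFX in each clone and 0 higher, where 12.4% of all expressed genes were called lower in HM_DFX and 8.72% in LM_DFX. S100a6 had 990 FPKM in HM_Ctrl and 218 in HM_DFX, against 1100 in LM_Ctrl and 267 in LM_DFX. S100a4, a gene known for its link to metastasis, had log2 fold changes of -1.69 in HM and -2.09 in LM, and S100a11 of -1.28 and -1.50. S100a4 and S100a11 share 49.2% and 48.9% of their 31-base stretches with other genes, so their counts are uncertain. S100a11 was also called lower in HM_Ctrl than in LM_Ctrl, at -1.09, while S100a1 and S100a3 were called lower in HM_DFX than in LM_DFX, at -1.33 and -1.04.

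**Figure D4:**
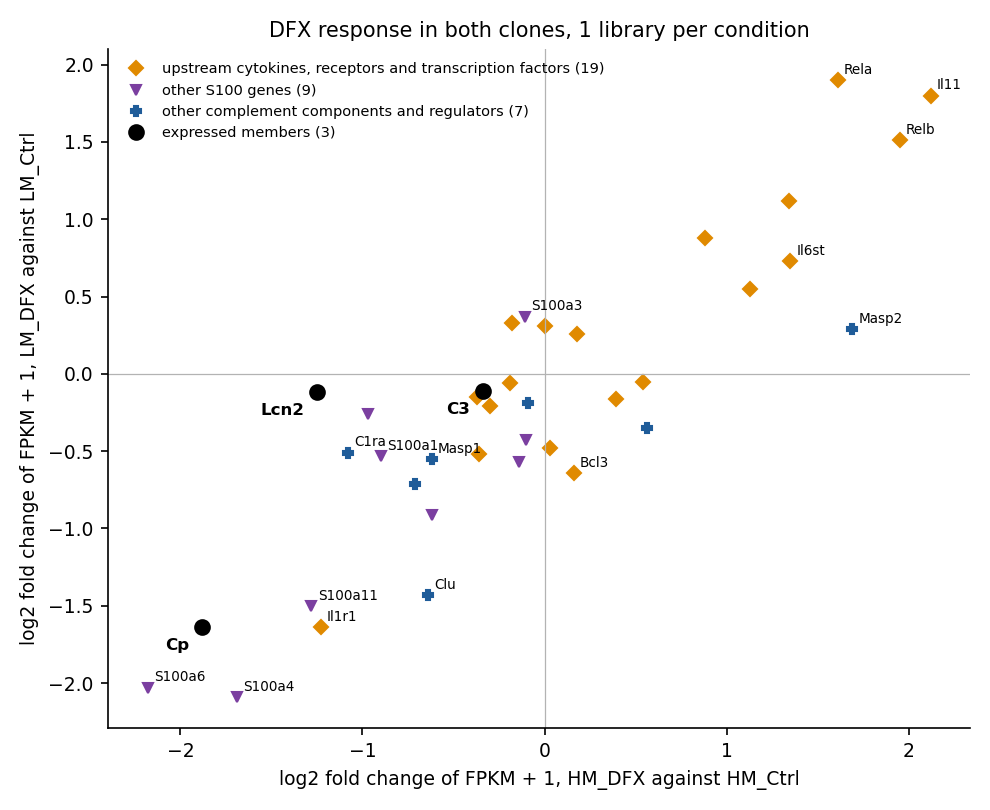
Log2 fold change of FPKM + 1 under DFX in 4T1-HM (x axis) and in 4T1-LM (y axis), 1 library per condition, for expressed genes of 3 lists (diamonds, triangles and crosses) and for Lcn2, Cp and C3 (black circles). Rela, Relb and Il11 lie at the upper right, Cp lies at the lower left near S100a6, S100a4 and S100a11, and Lcn2 lies at -1.25 on the x axis and at -0.12 on the y axis.

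Of 16 genes for receptors and clearance of these secreted proteins 6 were expressed, where 12669 of all 49585 genes were. They include Scarb1 at 6.02 to 12.6 FPKM and Tlr2 at 5.43 to 5.94 FPKM, neither of which was called in any comparison. The Lcn2 receptor Slc22a17 and the haptoglobin receptor Cd163 were listed at 0 in all 4 libraries. C3ar1, which encodes the receptor for C3a, a small fragment cut from C3, had at most 0.0139 FPKM. Tlr4, which binds calprotectin, was called higher in HM_Ctrl (7.65 FPKM) than in LM_Ctrl (3.03), at 1.10. Itgb2, the shared chain of integrins that bind fragments of C3, had 8.47 FPKM in HM_Ctrl and 0.433 in HM_DFX, against 19.8 in LM_Ctrl and 6.53 in LM_DFX, and was called lower in all 4 comparisons. Its partner chains in these integrins, Itgam and Itgax, had at most 1 fragment in any library. Of the 31-base stretches of the Itgam entries, 68.3% and 77.9% also occur in another gene. Lrp1, an endocytic receptor, was called lower in HM_DFX, at -1.56, and had -0.55 in LM_DFX. Basigin (Bsg), a receptor for S100a9, was called higher in LM_DFX, at 1.62, and had 0.39 in HM_DFX.

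For each expressed gene the 2 other protein-coding genes of most like pattern were found, by the root-mean-square difference of log2(FPKM + 1) over the 4 libraries after each gene was centred on its mean. Gpr146 (0.07) and Zfp518b (0.10) were nearest to Lcn2. Gpr146 had 5.69 FPKM in HM_Ctrl and 1.87 in HM_DFX, against 1.19 in LM_Ctrl and 1.29 in LM_DFX. Ephb6 (0.08) and Msln (0.15) were nearest to Cp, and Msln, which encodes the surface protein mesothelin, had 297, 90.5, 154 and 60.7 FPKM in the same order of libraries. Plek2 (0.11) and Dzip1 (0.12) were nearest to C3, with Plek2 at 3.43, 3.25, 14.1 and 14 FPKM. Among 10767 expressed protein-coding genes and over only 4 libraries, close neighbours are common, and the distances are a description.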

How the data were processed

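RNA of 4 cultures, 1 library per condition, was sequenced by the authors as poly(A)-selected, directional, paired-end libraries. FastQC was used to check the reads, Trimmomatic to trim them and HISAT2 to align them to mm10, and the submitters' processing notes also name featureCounts. Versions, the strand setting and the treatment of fragments on overlapping genes are not given in the sources used here. The authors deposited FPKM for 49585 genes. Columns were assigned by the sample descriptions. The paper called genes with edgeR, which was not repeated, since 1 library per condition gives no spread.

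Gene coordinates of 45128 genes equalled those of GENCODE M21, and with its exon lengths 97.1% of the 18236 such genes above 0 gave whole fragments in each of the 4 libraries (within 0.02, or 0.01% of larger numbers), as did all 9 genes reported. Totals were 16745608 fragments (HM_Ctrl), 14363065 (HM_DFX), 15731521 (LM_Ctrl) and 21883855 (LM_DFX). A 0 was taken to allow 3 fragments. Fold changes used a pseudocount of 1, genes that reached an FPKM of 1 in any library, and a threshold of 2-fold, with each interval of a ratio conditional on the summed fragments. Tried as alternatives were thresholds of 1.5-fold and 4-fold, fragment ratios, scaling to the median ratio or the 75th percentile, a pseudocount of 0.1, and either no filter or a filter on a mean FPKM of 1.

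The 9 genes and the 11 other lists, written from general knowledge, were chosen with earlier results of these data known. All 9 genes are named, and of each list up to 4 expressed genes past 2-fold per comparison. Fold-change calls and the motif search were tested on simulated data. Python 3.11.15, scipy 1.17.1 and pandas 2.3.3 were used.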

Additional observations from a re-analysis of the deposited data

Results flagged for a closer look

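Krt19, an epithelial keratin read as a check of the cell type, had opposite signs under DFX in the clones, with a log2 fold change of -0.19 in HM and 1.14 in LM, a difference of -1.33 that was not tested. Its FPKM was 101 in HM_Ctrl and 87.9 in HM_DFX, against 46.4 in LM_Ctrl and 103 in LM_DFX, so LM_Ctrl was the low library. Lcn2, Cp and C3 had the same sign in both clones.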

How the results depend on the processing

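No paired analysis was possible because each condition is 1 library and the labels carry no replicate numbers. Counts of the 9 genes stayed within 1.5 times the reported ones with no filter, with a mean FPKM of at least 1 and under both scalings. At a threshold of 1.5-fold, 2 genes (Lcn2 and Cp) were higher in HM_Ctrl than in LM_Ctrl, where 10.5% of expressed genes were. At 4-fold, with the pseudocount kept at 1, 0 of the 9 genes were called in any comparison. Per comparison and direction, 0.284% to 1.42% of expressed genes were. On fragments without a pseudocount, Lcn2 passed 4-fold in HM_Ctrl against LM_Ctrl, at 7.96 (4.80 to 14). So did Lcn2 (4.12) and Cp (4.04) as control to treated in HM, and C3 (4.46) as LM_DFX to HM_DFX, with intervals that reached below 4. The share of all genes past 4-fold on fragments was not counted. With a pseudocount of 0.1 or on fragment ratios, 1 gene (Lcn2) was higher in HM_DFX than in LM_DFX, where 6.39% and 7.07% of genes were. No log2 fold change of Lcn2, Cp or C3 changed sign under any alternative. Lcn2 moved most, between 1.57 and 2.99 in HM_Ctrl against LM_Ctrl and between -2.04 and -1.17 in HM_DFX against HM_Ctrl. Cp ranged from -2.02 to -1.75 in HM and from -1.83 to -1.59 in LM under DFX, and C3 from -1.88 to -1.70 between the untreated clones. Median-ratio scaling shifted the median of all genes by 0.11 in HM_DFX against HM_Ctrl. Depth limits Lcn2 in 4T1-LM, with 17 fragments in each library, and the 6 genes with at most 7 fragments.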
